A study of Mus musculus with 4 samples.

Results

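The Bach, Maf and CNC factors described here are 9 genes, Bach1, Bach2, Maf, Maff, Mafg, Mafk, Nfe2, Nfe2l1 and Nfe2l2. They were chosen by name as the basic leucine zipper factors that pair with one another on Maf recognition elements. They were read by 11 probes of the 41173 used on each of 4 one-colour Agilent whole mouse genome arrays, on which 18749 genes could be named. Maf and Nfe2l2 had 2 probes each and the other 7 genes had 1. Of the 11 probes, 9 were well above background on all 4 arrays, 2 (Nfe2 and the dimmer Maf probe) on some of them, and 0 on none.

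Each array held RNA of cultured helper T (Th) cells of one condition. WT cells and Bach2 KO cells (Bach2 flox/flox × CD4-Cre TG) came from spleens of C57BL/6J mice that the labels call female. The methods give an age of 8 to 12 weeks and state that mice of both sexes were used for in vitro work. In the KO the Cre transgene is driven by the Cd4 promoter, so deletion begins during T cell development, and the study describes its WT controls as CD4-Cre mice. Naive CD4 T cells (CD44 low, CD62L high, CD25 negative) were stimulated with 3 μg per ml of immobilized anti-TCR-β mAb and 1 μg per ml of anti-CD28 mAb for 2 days and then kept in IL-2 for a further 3 days. The labels give 2.5 ng per ml of IL-2 and the methods 10. Cells were taken without further treatment, WT (-) and Bach2 KO (-), or after 4 h on immobilized anti-TCR-β mAb with no added IL-2, WT (+) and Bach2 KO (+). There was 1 array for each condition, so no difference has a replicate check and no test between conditions was made. The number of mice behind each array is not given in the sources used here.

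Bach and CNC proteins generally do not bind DNA on their own but pair with a small Maf protein (MafF, MafG or MafK). Pairs with Bach1 or Bach2 repress their targets, and pairs with Nrf2 (encoded by Nfe2l2), Nrf1 (Nfe2l1) or p45 NF-E2 (Nfe2) activate them, so that the same element can be read in opposite ways. The small Mafs have no activation domain and are shared by both sides. The large Maf protein c-Maf (Maf) binds as a dimer, activates transcription, and is known in helper T cells as an activator of Il4, Il10 and Il21. In T cells Bach2 is known to hold back effector genes that AP-1 factors drive.

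These pairs read related sequences, among them the antioxidant response element (ARE) core TGACNNNGC and the AP-1 site TGACTCA. Others are the cAMP response element TGACGTCA and TGCTGAC, part of a Maf recognition element. The member windows shown are those that hold an ARE core or a cAMP response element, and they belong to the 3 small Mafs and Nfe2l2. Signal after re-stimulation was higher in both genotypes for the small Mafs and not for Nfe2l2. Another Maff window held neither sequence and is not shown. The same goes for the windows of Bach1, Bach2 and Nfe2l1, whose signal was also higher in both genotypes. Each sequence is the RefSeq window on build GRCm38.p6 from 250 bases before to 50 after an annotated start. It runs 5′ to 3′ on the strand of the gene, with the ARE core or the cAMP response element in capitals.
Maff, chr15:79346371-79346670, plus strand: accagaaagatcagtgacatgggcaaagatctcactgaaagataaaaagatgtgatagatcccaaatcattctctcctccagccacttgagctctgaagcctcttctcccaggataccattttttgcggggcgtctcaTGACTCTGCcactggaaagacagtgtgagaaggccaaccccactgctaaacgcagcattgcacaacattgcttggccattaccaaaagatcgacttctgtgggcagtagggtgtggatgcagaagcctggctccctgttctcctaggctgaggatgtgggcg
Maff, chr15:79347270-79347569, plus strand: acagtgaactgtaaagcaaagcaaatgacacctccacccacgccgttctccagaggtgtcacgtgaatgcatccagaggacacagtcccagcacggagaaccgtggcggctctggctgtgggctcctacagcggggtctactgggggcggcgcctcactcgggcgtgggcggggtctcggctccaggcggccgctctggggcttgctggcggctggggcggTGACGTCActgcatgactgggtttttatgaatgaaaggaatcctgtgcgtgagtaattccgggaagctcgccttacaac
Mafg, chr11:120633498-120633797, minus strand: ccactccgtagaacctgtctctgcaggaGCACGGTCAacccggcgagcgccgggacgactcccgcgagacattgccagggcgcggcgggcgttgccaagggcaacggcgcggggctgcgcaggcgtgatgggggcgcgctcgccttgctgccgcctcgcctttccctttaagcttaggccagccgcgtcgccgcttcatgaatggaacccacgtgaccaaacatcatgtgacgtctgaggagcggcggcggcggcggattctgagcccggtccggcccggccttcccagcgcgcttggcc
Mafk, chr5:139791286-139791585, plus strand: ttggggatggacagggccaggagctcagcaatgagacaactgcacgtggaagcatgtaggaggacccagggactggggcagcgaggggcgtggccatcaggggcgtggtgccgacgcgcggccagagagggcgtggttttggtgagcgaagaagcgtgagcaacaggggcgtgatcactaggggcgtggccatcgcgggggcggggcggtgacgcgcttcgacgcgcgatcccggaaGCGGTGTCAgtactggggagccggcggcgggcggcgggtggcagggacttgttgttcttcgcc
Nfe2l2, chr2:75704614-75704913, minus strand: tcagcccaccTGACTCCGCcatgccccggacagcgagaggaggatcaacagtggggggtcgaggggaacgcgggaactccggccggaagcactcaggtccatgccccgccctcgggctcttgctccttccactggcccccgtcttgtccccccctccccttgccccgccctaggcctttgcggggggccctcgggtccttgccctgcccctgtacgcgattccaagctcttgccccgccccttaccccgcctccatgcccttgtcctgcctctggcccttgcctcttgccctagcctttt

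The table of promoters held 13 windows of 7 of the 9 genes. The ARE core was found on either strand in 4 of the 13 windows, 1 for each of Maff, Mafg, Mafk and Nfe2l2. Of all 32851 promoter windows of 300 bases that were compared, 12.4% held it. Windows on 1 chromosome, which holds none of the 9 genes, were left out of the comparison. In Maff the match began 112 bases before the start and read TGACTCTGC, and in Mafk it began 13 bases before the start and read GCGGTGTCA, which is the core on the other strand. The cAMP response element lay in another Maff window, 29 bases before that start, and 1.79% of all windows held one. TGCTGAC was found in 3 overlapping windows of Nfe2l1 and in 4.67% of all windows. TGACTCA was found in 0 of the 13 windows, against 5.20% of all. These are letters in a window, and no binding to them was measured on the arrays.

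Signal is the scanner's background-corrected intensity. Differences are log2 values between arrays, each array first scaled to its own 75th percentile, which lay between 313 and 436. The error that Feature Extraction models for a spot comes to about 0.20 on the log2 scale for a difference between arrays, and probes of the same gene differed with a median SD between 0.088 and 0.151, depending on the comparison. Neither covers the spread between mice or cultures. Where just 1 array of a comparison had the probe well above background, the difference is a bound, with the dimmer side raised to the lowest signal well above background on its array, between 14.5 and 17.2. A 2-fold difference (1 on the log2 scale) was used as a rule of size.

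The arrays differed in more than the labelled conditions. Y-linked transcripts were present on the KO arrays only, where Eif2s3y had 1185 and 951 against 3.29 and 3.18 on the WT arrays, below background. Of the 5 genes of the Y-linked and Xist list, 4 were well above background on each KO array, Xist among them, and only Xist on each WT array. Xist had 9524 on WT (-), 4623 on Bach2 KO (-), 5221 on WT (+) and 2585 on Bach2 KO (+). The sex of the cells thus cannot be told apart from the genotype. Of 9 T cell identity genes with a named probe, 9 were well above background on every array. Mast cell and basophil genes were well above background for 2 and 1 of 10 on the WT arrays and for 7 on each KO array, with summed intensities of 213 and 327 against 1463 and 1911, while Ms4a2, Mcpt4 and Tpsb2 were below background on all 4. Of 6 erythroid genes 3 were well above background on each array, with summed intensities from 9761 on WT (-) to 1226 on Bach2 KO (+), and Klf1 and Alas2 were below it on all 4. Well above background were 2 of 5 B cell genes on each array, 2 to 4 of 6 myeloid genes, 2 or 3 of 5 NK cell genes, 1 or 2 of 5 platelet genes, and the 1 named CD8 gene on Bach2 KO (+) only. The part of these differences in the results that follow was not tested, and in bulk RNA fewer cells of a type cannot be told apart from less RNA per cell.

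Maf was the member that stood apart between the genotypes. Its brighter probe, A_51_P405167 (NM_001025577), had an intensity of 57.2 on WT (-), 1432 on Bach2 KO (-), 123 on WT (+) and 2391 on Bach2 KO (+). Both KO arrays lay above both WT arrays, and the re-stimulated WT cells did not reach the resting KO cells. The log2 difference between genotypes was 4.65 before re-stimulation, 25.1-fold, and 4.10 after it, 17.2-fold. Of all probes compared, 0.125% had a difference as high or higher before re-stimulation and 0.193% after it. The other Maf probe, A_51_P379230, was far dimmer, with 46.9 on Bach2 KO (-) and 86.6 on Bach2 KO (+), and it was not well above background on either WT array. Its signal was thus at least 3.12-fold higher in the KO before re-stimulation and at least 5.29-fold after it, bounds that lie below the differences of the brighter probe. After normexp correction and quantile normalization the bound before re-stimulation was 0.55 on the log2 scale, under 2-fold. Of the mast cell and basophil genes, 7 of 10 could be compared between the genotypes, and 5 before and 6 after re-stimulation were at least 2-fold higher in the KO, against 5.26% and 5.17% of all genes, among them Cpa3, the mast cell carboxypeptidase, by at least 4.49 and 3.58 on the log2 scale.

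**Figure D1:**
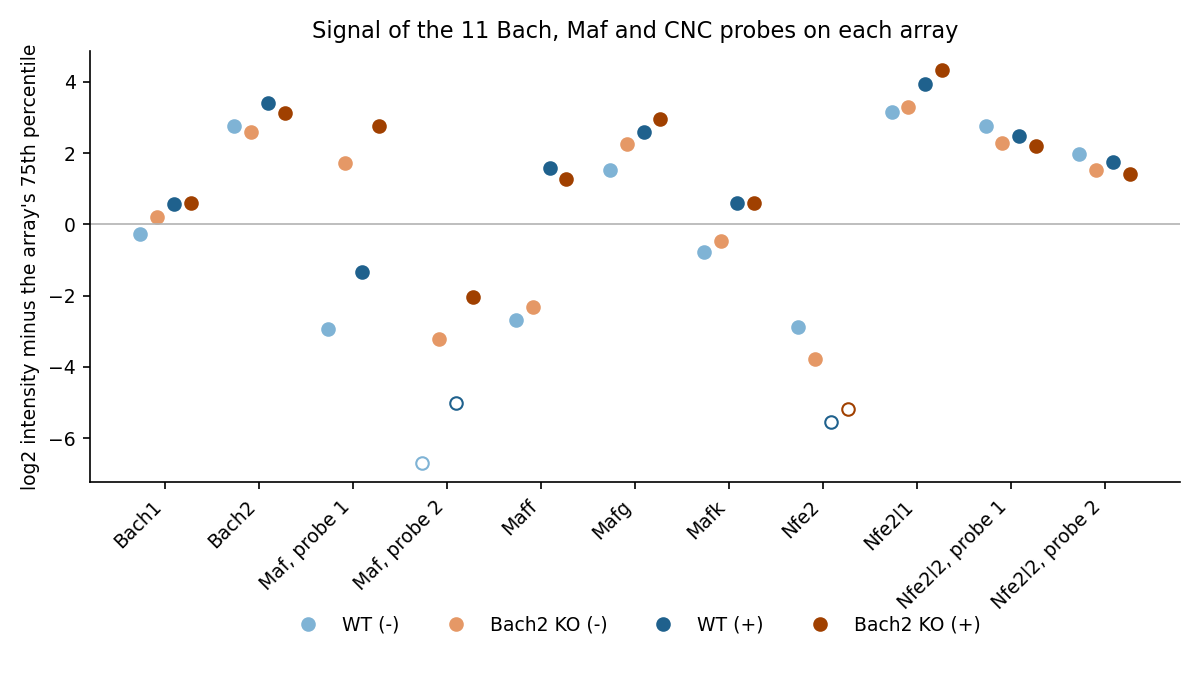
Signal of each of the 11 probes on the 4 arrays, as log2 intensity minus the 75th percentile of the array (vertical axis), with 1 point per array coloured by condition and open where the probe was not well above background. Maf separates the KO arrays from the WT arrays, Maff separates the re-stimulated arrays from the others, and the Nfe2l2 probes span 0.54 and 0.55.

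By the 2-fold rule, 2 of 11 member probes were higher in the KO before re-stimulation, against 4.83% of 23156 probes, and 0 were lower, against 2.77%. After re-stimulation 2 of 10 were higher, against 4.56% of 23314 probes, and 0 were lower, against 4.02%. All 4 of these calls were the probes of Maf, 1 gene, so the count of genes past 2-fold was 1 at each time. The median over member probes was 0.31 before and 0.02 after re-stimulation, and over all probes -0.02 and -0.01. Leaving out Maf, the differences of the members ran from -0.89 to 0.72 in resting cells and from -0.31 to 0.38 in re-stimulated cells.

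Among the repressors, Bach2, the targeted gene, had an intensity of 2932 on WT (-), 2633 on Bach2 KO (-), 3310 on WT (+) and 3080 on Bach2 KO (+) at its only probe, A_52_P184618 (NM_001109661). The genotype differences were -0.15 before and -0.28 after re-stimulation, close to the modelled error, and 31.9% and 23.6% of all probes had a difference as low or lower. Which exon is floxed is not given in the sources used here, and the probe may lie outside the deleted part, so it gives no check of the genotype labels. Bach1, the relative of Bach2 that represses heme and oxidative stress genes, had 363 on WT (-), 505 on Bach2 KO (-), 460 on WT (+) and 538 on Bach2 KO (+). Its signal was lowest on WT (-), with a difference between genotypes of 0.48 before re-stimulation and 0.05 after it. Thus neither Bach gene passed 2-fold between the genotypes.

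None of the 3 small Mafs, the shared partners, passed 2-fold between the genotypes (0 of 3). Maff had 67.8 on WT (-), 86.4 on Bach2 KO (-), 930 on WT (+) and 844 on Bach2 KO (+). Its genotype differences were 0.36 before and -0.31 after re-stimulation. Mafg had 1251 on WT (-), 2055 on Bach2 KO (-), 1886 on WT (+) and 2728 on Bach2 KO (+), and had genotype differences of 0.72 before and 0.36 after re-stimulation, values that 7.13% and 17.5% of all probes reached or passed. Mafk had 256 on WT (-), 316 on Bach2 KO (-), 475 on WT (+) and 531 on Bach2 KO (+), with differences of 0.31 and -0.01. All of these were under 2-fold. Except for Mafg before re-stimulation, they were within the modelled error of 0.204 to 0.225 or not far above it.

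Of the activators, Nfe2l2, which encodes Nrf2, had values below 0 between the genotypes at both probes and both times, all under 2-fold. Probe A_51_P411271 had 2920 on WT (-), 2105 on Bach2 KO (-), 1753 on WT (+) and 1625 on Bach2 KO (+), and probe A_52_P396436 had 1711, 1252, 1041 and 946 in the same order. In resting cells the genotype differences at the 2 probes were -0.47 and -0.44, and in re-stimulated cells -0.28 and -0.31, so the probes differed from each other by less than the modelled error. Nfe2l1, whose product Nrf1 controls proteasome genes, had 3851 on WT (-), 4244 on Bach2 KO (-), 4802 on WT (+) and 7029 on Bach2 KO (+), with genotype differences of 0.15 and 0.38. Nfe2, which encodes the erythroid and megakaryocytic factor p45, had 59.1 on WT (-) and 31.7 on Bach2 KO (-), a difference of -0.89, and was not well above background on either re-stimulated array, with 6.69 and 9.82. Of the erythroid and platelet genes, Hba-a1, a haemoglobin chain, was lower in the KO before re-stimulation, with 8684 on WT (-) and 1505 on Bach2 KO (-), whereas Epor, the erythropoietin receptor, had a difference of 0.42 and Pf4, platelet factor 4, was higher by at least 1.65. Gata1, also of the erythroid list, had genotype differences of -1.18 before and -1.91 after re-stimulation. On re-stimulation Epor rose by 2.54 in WT and 1.61 in KO cells, Hba-a1 had -0.44 and -0.28, and Gata1 had -1.04 and -1.77. The part of erythroid or platelet RNA in the Nfe2 signal was not tested.

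**Figure D2:**
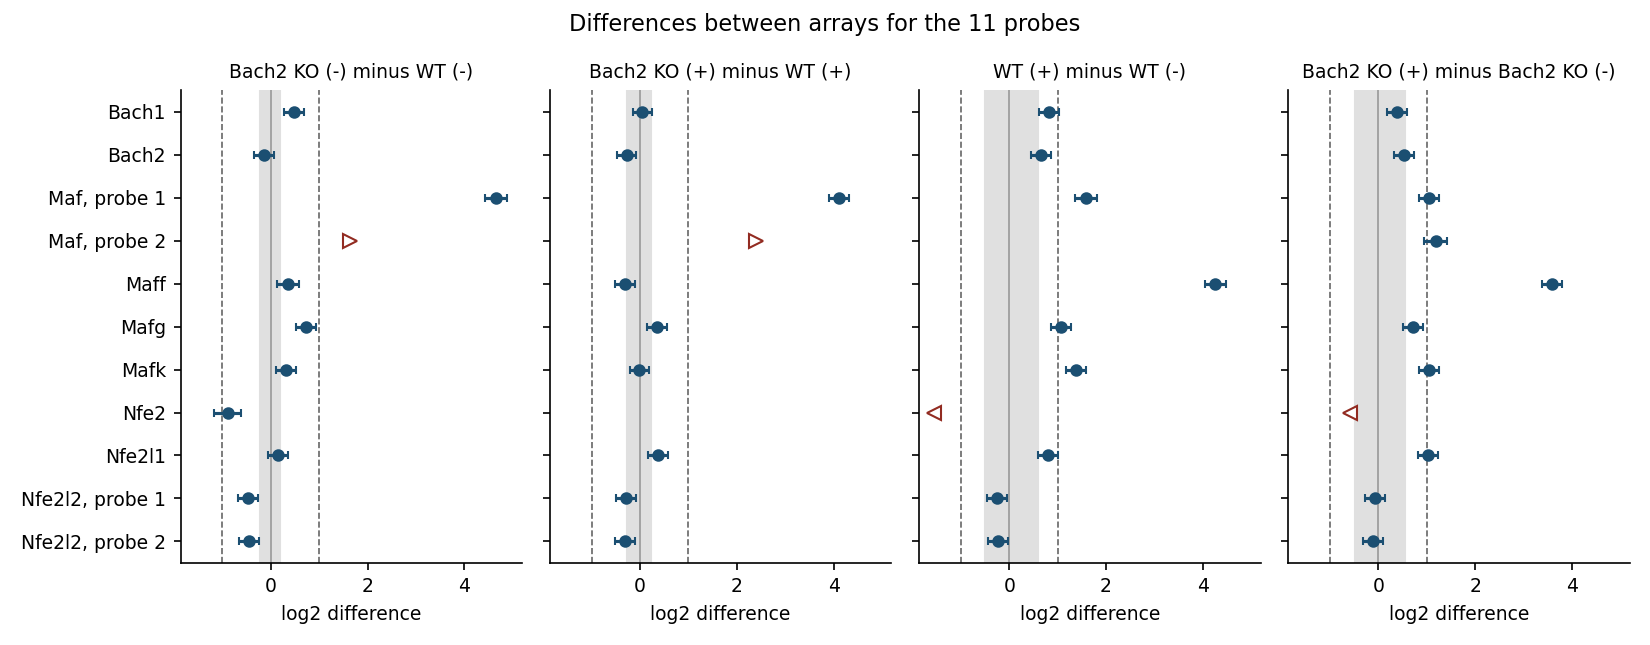
Log2 difference (horizontal axis) of each of the 11 probes in the 4 comparisons, with the modelled error as bars, triangles for bounds, dashed lines at 2-fold and a grey band for the middle 50% of all probes. Maf lies past the 2-fold line in the KO at both times and Maff lies farthest to the right in both re-stimulation responses.

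At this scaling more member probes passed 2-fold on re-stimulation than between the genotypes, and the same held for all probes. In WT cells 4 of 10 member probes were at least 2-fold higher after 4 h, against 13.9% of 23690 probes, and 1 was lower, against 11.4%. In KO cells 5 of 11 were higher, both Maf probes among them, against 12.3% of 23530 probes, and 0 were lower, against 11%. The median over member probes was 0.81 in WT cells and 0.71 in KO cells, and over all probes 0.06 in each. Scaling to the median instead of the 75th percentile lowers every re-stimulation difference by 0.30 in WT and by 0.27 in KO cells, and the count falls to 3 higher and 1 lower in WT and to 1 higher in KO cells. That scaling also turns the split of all probes past 2-fold from 55.0% higher to 32.7% in WT and from 52.9% to 32.7% in KO cells.

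Maff, an early response gene, rose most among the members. Its log2 response was 4.26 in WT cells, 19.1-fold, and 3.59 in KO cells, 12.02-fold, so both re-stimulated arrays lay far above the others. Of all probes, 0.705% in WT and 0.935% in KO cells had a response as high or higher. Its lowest response under any other setting was 3.16 in WT and 2.76 in KO cells. The other small Mafs had smaller responses, 1.37 and 1.05 for Mafk and 1.07 and 0.71 for Mafg, in WT and KO cells. Scaled to the median they were 1.08 and 0.79 for Mafk and 0.78 and 0.44 for Mafg, so only Mafk in WT cells still passed 2-fold there.

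Maf rose on top of its genotype difference, by 1.59 in WT and 1.04 in KO cells at the brighter probe and by 1.19 in KO cells at the dimmer one. Scaled to the median the KO values were 0.77 and 0.92, and after normexp correction and quantile normalization the WT value was 0.84 and that of the dimmer probe 0.54, all under 2-fold. The responses of Bach1 were 0.82 in WT and 0.39 in KO cells and those of Bach2 0.66 and 0.53, neither past 2-fold. Those of Nfe2l1 were 0.80 in WT and 1.03 in KO cells, and the latter was 0.76 when scaled to the median. Nfe2l2 had responses of -0.26 and -0.07 at one probe and -0.24 and -0.10 at the other. For Nfe2 the fall on re-stimulation was at least 2.92-fold in WT cells, and in KO cells the bound was 1.49-fold. After normexp correction and quantile normalization the WT value was -0.78 on the log2 scale, under 2-fold.

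The response of the KO minus that of the WT was negative for Maff (-0.67), Maf (-0.55), Bach1 (-0.43), Mafg (-0.37), Mafk (-0.32) and Bach2 (-0.13), and positive for Nfe2l1 (0.23) and both Nfe2l2 probes (0.18 and 0.13). Over the 19829 probes that cleared background on every array, the median of this value was -0.02, the middle 50% lay between -0.22 and 0.19, and 18.2% were at least 0.5 in size. Maff and Maf are the members past 0.5. With 1 array each, whether these responses differ between the genotypes could not be tested.

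**Figure D3:**
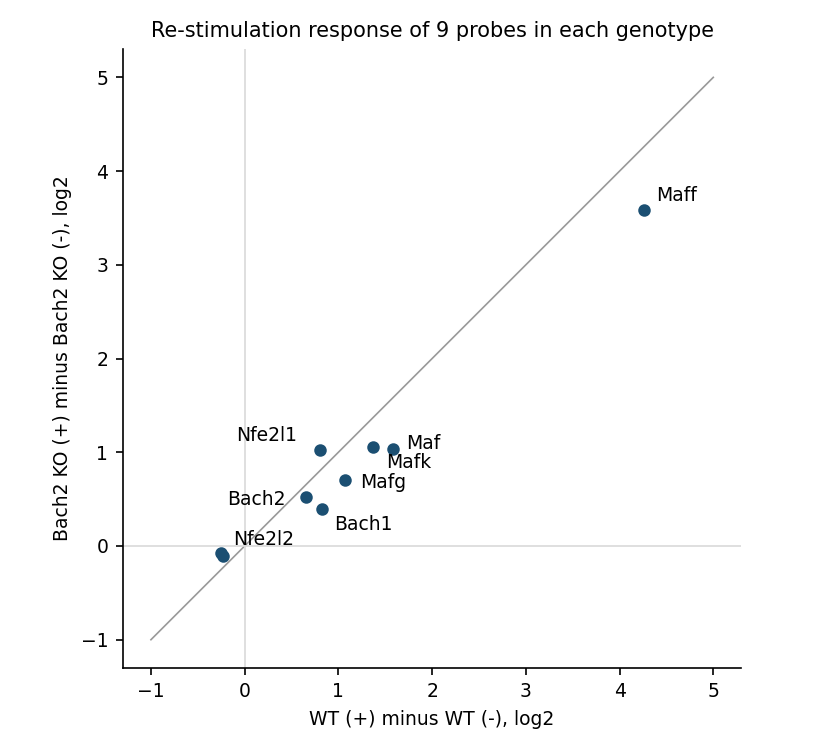
Log2 response to re-stimulation of the 9 member probes well above background on all 4 arrays, in WT cells (horizontal axis) and Bach2 KO cells (vertical axis), with the line of equal response. Maff, Maf, Mafk, Mafg, Bach1 and Bach2 lie below the line, and Nfe2l1 and the Nfe2l2 points lie above it.

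The genes with the most similar pattern over the 4 arrays were found by Euclidean distance of log2 values centred on each gene's mean, among 10809 genes well above background on all 4. Nearest to Maf were Pparg, a nuclear receptor, Gzmd, a granzyme, and Itgae, the integrin chain CD103, at distances of 0.74, 0.87 and 0.87. No gene lay within 0.5 of Maf (0 of 10809), whereas 12 lay within 0.5 of Maff. Nearest to Maff were Ocstamp at 0.23, Kdm6b, a histone H3K27 demethylase, at 0.35 and Map2k3os at 0.36. The milder patterns had far more company, with 515 genes within 0.5 of Mafg (nearest Tmed1, Cd53 and Cdkn1a), 747 of Mafk (nearest Zswim6, Wdr55 and Ankrd6) and 1261 of Nfe2l1 (nearest Ccnj, Psat1 and Olfr127). The nearest genes are a description of 4 arrays, and normexp correction with quantile normalization kept 1 of these 3 among the nearest 3 of Maf, 1 for Mafg and 0 for Maff, Mafk and Nfe2l1. For Mafk and Nfe2l1 it kept 0 of 3 even among the nearest 10, and quantile normalization alone kept 1 of 3 for each among the nearest 3.

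**Figure D4:**
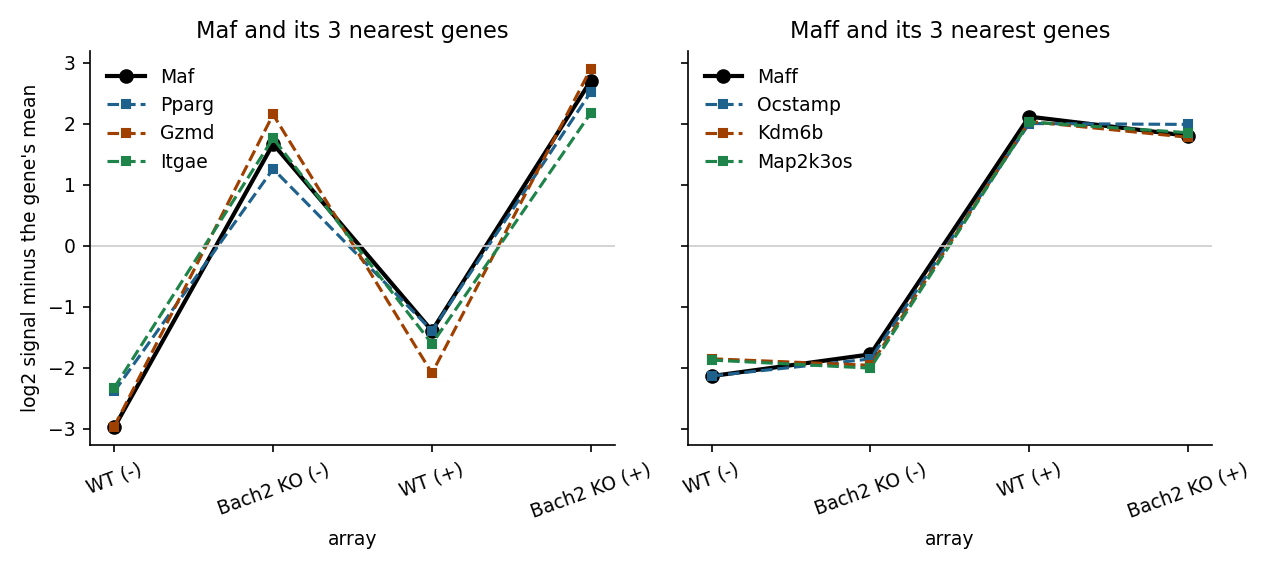
Log2 signal minus the mean of the gene (vertical axis) on the 4 arrays for Maf and Maff (black) and the 3 genes nearest to each. Maf and its neighbours are high on both KO arrays, and Maff and its neighbours are high on both re-stimulated arrays.

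Genes linked to c-Maf in T cells were read beside it. Il4, the Th2 cytokine, had 752 on WT (-), 5239 on Bach2 KO (-), 10876 on WT (+) and 148258 on Bach2 KO (+), a genotype difference of 2.81 before and 3.59 after re-stimulation. Il10, which encodes a cytokine that restrains inflammation, was not well above background on WT (-) and had 378 on Bach2 KO (-), 104 on WT (+) and 6754 on Bach2 KO (+), a difference of 5.85 after re-stimulation. Il21 was well above background on the re-stimulated arrays only, with 23.4 on WT (+) and 469 on Bach2 KO (+), a difference of 4.15. Between the genotypes, the 2 of these genes measured before re-stimulation and all 3 after it were thus at least 2-fold higher in the KO, against 5.26% and 5.17% of all genes. On re-stimulation all 3 were at least 2-fold higher in each genotype, against 13.2% and 12.4% of all genes, Il4 by 4.34 and 5.12, Il10 by at least 3.26 in WT and by 4.46 in KO cells, and Il21 by at least 1.11 and 5.11. Scaled to the median, 2 of the 3 were in WT cells. These genes were chosen with earlier results on these arrays known, so their direction is no independent evidence.

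Of 5 genes linked to Bach2, which are Batf, Batf3, Irf4 and Jund from the study and Prdm1, which encodes the repressor Blimp-1, 2 were at least 2-fold higher in the KO before re-stimulation, Batf3 (1.77) and Prdm1 (1.31), against 5.26% of all genes, and 0 were lower, against 2.82%. After it 3 were higher, Batf (1.26), Batf3 (1.75) and Prdm1 (1.98), against 5.17%, and 0 were lower, against 3.85%. The study examined the first 4, and the list was made with earlier results on these arrays known, so its direction is not independent evidence. Irf4, a partner of Batf, had differences of 0.73 and -0.35 and Jund, an AP-1 subunit, 0.14 and 0.15. The medians were 0.73 and 1.26 between the genotypes, and 0.77 and 1.53 for the responses in WT and KO cells, where Irf4 rose by 3.94 and 2.86 and Jund had the lowest values, -0.21 and -0.20.

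Targets that Nrf2 activates and Bach1 represses were measured for 28 of 30 genes between the genotypes. Before re-stimulation 3 were at least 2-fold higher in the KO, Srxn1 (2.63), Hmox1 (1.23) and Me1 (at least 1.77), and 1 lower, Ephx1 (-1.95), with Blvrb next at -0.93. After it 3 were higher, Me1 (1.76), Hmox1 (1.60) and Slc7a11 (at least 1.05), and 1 lower, Ephx1 (-1.54), with Blvrb at -0.88. After normexp correction and quantile normalization the number higher was 2 before and 1 after re-stimulation, and with both arrays above background it was 2 at each time. The shares of all genes higher and lower were 5.26% and 2.82% before and 5.17% and 3.85% after, and the medians of the list 0.13 and 0.30. Most members of the list, the pentose phosphate enzymes and peroxiredoxins among them, thus stayed within 2-fold. Srxn1 encodes sulfiredoxin, which repairs oxidized peroxiredoxins, Hmox1 heme oxygenase-1, Me1 malic enzyme, and Ephx1 an epoxide hydrolase.

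Srxn1 had an intensity of 259 on WT (-), 1600 on Bach2 KO (-), 29316 on WT (+) and 53519 on Bach2 KO (+), a response of 7.30 in WT and 5.36 in KO cells. Hmox1 had 338 on WT (-), 793 on Bach2 KO (-), 1215 on WT (+) and 4166 on Bach2 KO (+), a response of 2.32 and 2.69. Both rose in each genotype, and between the genotypes only Srxn1 after re-stimulation, at 0.69, was under 2-fold. In WT cells 4 of 28 genes of the list were at least 2-fold higher after re-stimulation and 4 lower, against 13.2% and 13.5% of all genes, with a median of 0.30, and Osgin1 (-1.72) and the heme transporter Slc48a1 (-1.29) were lowest. In KO cells 7 of 29 were higher and 2 lower, Osgin1 (-2.29) and Cat, catalase (-1.26), against 12.4% and 13.0%, with a median of 0.16. For Idh1, isocitrate dehydrogenase 1, the bound in KO cells was 0.01 and gave no direction. Scaled to the median, the list medians were 0.00 and -0.10, so the list had no direction on re-stimulation that both scalings share.

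**Figure D5:**
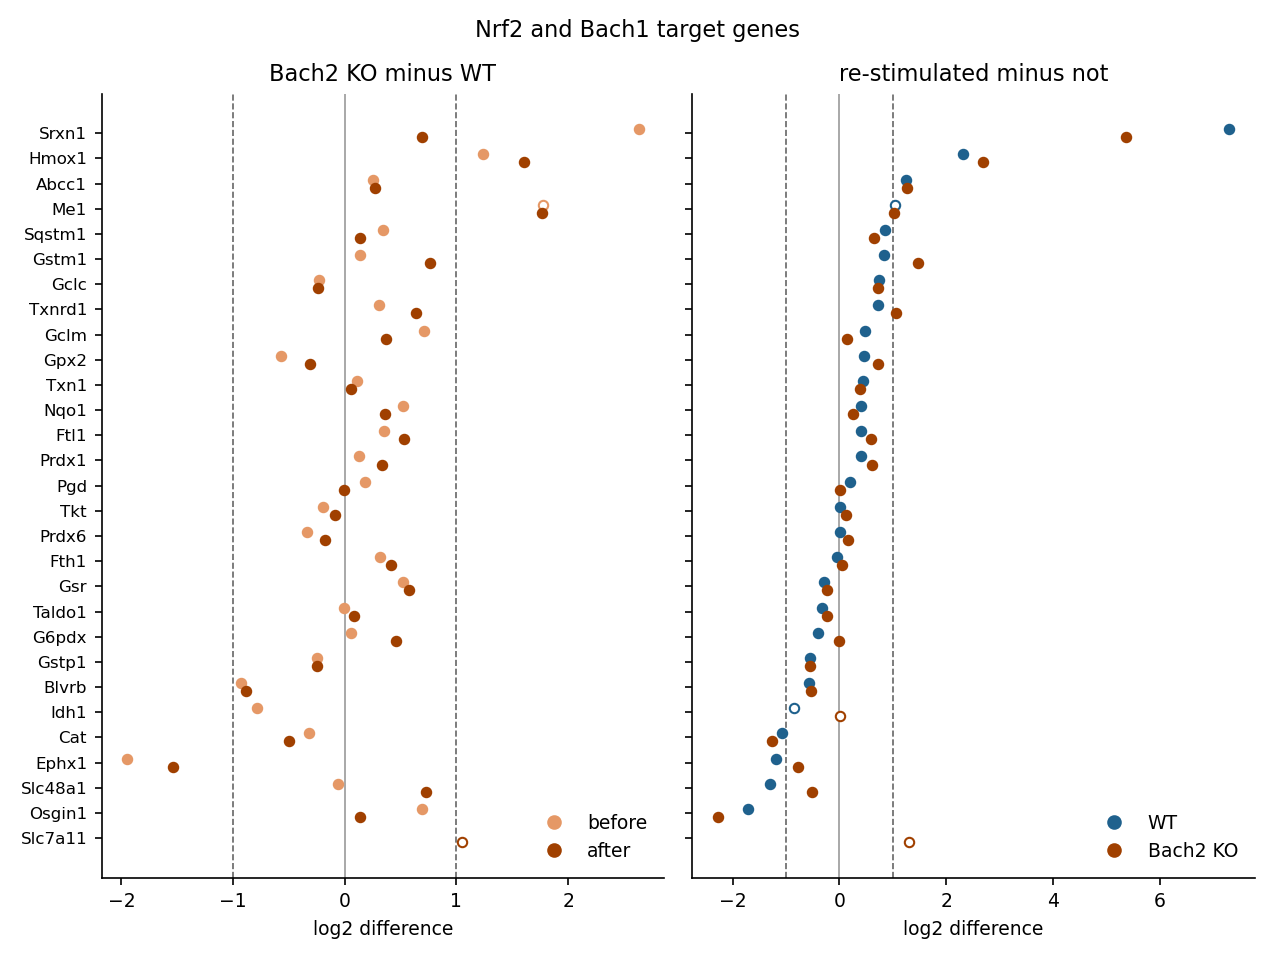
Log2 difference (horizontal axis) of 29 Nrf2 and Bach1 target genes between the genotypes before and after re-stimulation (left) and between re-stimulated and resting cells of each genotype (right), with dashed lines at 2-fold and open points for bounds. Srxn1 and Hmox1 head the list on re-stimulation, and Ephx1 is lowest in the KO.

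Genes that control the Nrf2 and Nrf1 proteins were named for 8 of 9, and 0 passed 2-fold in any comparison, though 2 were lower by over 2-fold on re-stimulation of WT cells when scaled to the median. Keap1, the adaptor that marks Nrf2 for degradation, had genotype differences of 0.19 and 0.02, and Syvn1, the ligase that marks Nrf1, had 0.55 and 0.54 and the highest responses, 0.94 and 0.93. Gsk3b was the next highest after re-stimulation, with 0.51. Cul3, the scaffold of the Keap1 ligase, was lowest between the genotypes, with -0.32 and -0.20. The list medians were 0.03 and 0.07 between the genotypes and -0.43 and -0.36 on re-stimulation, where Btrc was lowest (-0.85 and -0.67). The 31 proteasome subunit genes, targets of Nrf1, also had 0 past 2-fold in each comparison, with medians of 0.08 and 0.06 between the genotypes. Of all genes, 5.26% were at least 2-fold higher and 2.82% lower in resting KO than resting WT cells. These shares were 5.17% and 3.85% in re-stimulated cells, 13.2% and 13.5% for the response of WT cells and 12.4% and 13.0% for that of KO cells. On re-stimulation 29 of 31 in WT and 28 in KO cells lay above 0, against 49.8% and 50.6% of all genes, with medians of 0.37 and 0.34, highest for Psmc5 (0.80) in WT and for Psmd7 (0.80 and 0.78). Scaled to the median these were 0.07 in both genotypes, with 21 and 20 of 31 above 0.

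Of the CNC and large Maf genes outside the set, Nfe2l3 had 46.1 on WT (-), 50.2 on Bach2 KO (-), 54.5 on WT (+) and 41.5 on Bach2 KO (+). Mafa was well above background on WT (+) only, at 19.2, and Nrl on no array (0 of 4).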

How the data were processed

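RNA of 4 cultures was labelled with Cy3 and hybridized to 4 arrays, 1 per condition. The authors deposited, for each spot, a processed intensity from Agilent Feature Extraction 10.7.3.1, with background subtracted by that software, its modelled error, the median spot and background intensity, and flags. A further deposited file holds the authors' log2 values, 1 per probe and array, which matched log2 of the same intensity less the array's 75th percentile. The flags were used for filtering.

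Spots flagged as non-uniform or as population outliers (107 to 120 per array) were left out, spots of a probe were averaged as log2, and the 75th percentile of the array over all non-control probes was subtracted. No spot was saturated (0 on each array), and 53.6% to 54.0% of probes were well above background. Of 41173 probes, 27479 (66.7%) were named by transcript through the RefSeq table of GRCm38.p6, and the others entered the scaling and the counts, medians and shares over all probes. The array was designed on another build, so no gene coordinates are given, and promoters are RefSeq's. A gene of a list was read from its probe with the highest mean log2 signal. With 1 array per condition, precision is limited by the number of arrays, and differences were described by a 2-fold rule of size.

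All members were reported whatever their values. From each pathway list the counts and the median were taken, and genes were named from the 2 highest and 2 lowest measured differences per comparison or from those past 2-fold. Marker lists were given by counts, and some of their genes were also named singly, chosen without a stated rule. A few genes of the lists are not reported here. Members that spanned at least 1 on the log2 scale were set against the 3 nearest genes. The members and lists were chosen with earlier results of these data known. Alternatives were scaling to the median, to that percentile over probes detected on every array, quantile normalization, normexp correction with an offset of 50 then quantile normalization, the authors' log2 table, a filter on both arrays, no filter, no spot left out, the mean over a gene's probes, and 1.5-fold and 3-fold rules. Scripts were checked on simulated data. Python 3.11.15, numpy 2.4.6, pandas 2.3.3, R 4.3.3 and limma 3.58.1 were used. The ChIP-seq part of the study was not used here.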

Additional observations from a re-analysis of the deposited data

Results flagged for a closer look

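Maff and Mafk had genotype differences of opposite sign before and after re-stimulation. Maff was higher in the KO by 0.36 on the log2 scale before it and lower by 0.31 after it, a change of -0.67, and Mafk went from 0.31 to -0.01, a change of -0.32. The modelled errors before and after were 0.225 and 0.204 for Maff and 0.205 and 0.204 for Mafk. The Maff values were thus not far above the error, and Mafk after re-stimulation had no clear direction. Each rests on 4 arrays, the difference was not tested, and the value of Mafk after re-stimulation was above 0 under quantile normalization, with or without normexp correction.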

How the results depend on the processing

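Scaled to the median, the re-stimulation differences in WT and KO cells were 0.36 and 0.26 for Bach2, 1.29 and 0.77 for Maf, 0.52 and 0.13 for Bach1, and -0.55 and -0.34 for Nfe2l2, and the count of member probes past 2-fold in KO cells fell from 5 to 1. After normexp and quantile normalization, Maf differed between the genotypes by 3.43 before and 3.62 after re-stimulation and by 0.84 on re-stimulation of WT cells, and the counts were 1 between the genotypes before re-stimulation, 3 for WT and 2 for KO cells. Quantile normalization alone gave 4.54 for Maf before re-stimulation. With a filter for signal above background on both arrays, the counts between genotypes were 1 and 1, the brighter Maf probe. A 1.5-fold rule gave 4 between the genotypes before re-stimulation and 8 in WT cells, and a 3-fold rule 2 in WT and 1 in KO cells. The other values of these results, 132 differences and 30 counts, moved by less than the median SD between probes or stayed within 1.5 times. Many of these had no room to move. For a probe well above background on all 4 arrays, either filter setting, keeping all spots and the authors' log2 table repeat nearly the same calculation. The mean over probes is the same single probe for Bach1, Bach2 and Maf. Such values are no check of stability. Of 42 member differences, 1 changed sign, that of Mafk after re-stimulation, and 9 crossed 2-fold under some setting, all but 1 of them on re-stimulation. No paired analysis was possible because each condition has 1 array, and none could be left out. All 4 arrays share a slide and a scan. The dimmest probes, those of Nfe2 and the second of Maf, give only bounds where just 1 array of a comparison is well above background. Where neither array is, they give no value. That was so for Nfe2 between the genotypes after re-stimulation and for the second Maf probe on re-stimulation of WT cells.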
